A study of Mus musculus with 8 samples.

Results

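The Hox genes of the mouse uterus were followed in whole uteri of 8 mice, 4 with Foxa2 deleted and 4 controls, on 1 array per uterus. Members were all genes whose symbol is Hox followed by a cluster letter and a number, each measured by its single probe set. Such a probe set was used for 37 Hox genes, among 19938 genes tested in all. Hoxb8 was not analysed here, since the only probe set naming it also names Hoxb7. No filter on low values was used, so all 37 entered the test.

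The Foxa2-deleted females were PgrCre/+ Foxa2flox/flox. Both Foxa2 alleles were floxed, and Cre was made from 1 allele of the progesterone receptor gene Pgr, in the cells that use Pgr. The control females were Pgr+/+ Foxa2+/+, with no Cre, so Cre and the Pgr genotype differed between the groups together with Foxa2 and cannot be told apart from it. All females were pseudopregnant after mating with vasectomised wild-type males, and the uteri were taken on day 3.5, counting the plug as day 0.5. No age of the mice is given. In whole tissue, fewer cells of a type and less transcript per cell cannot be told apart.

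Hox genes encode homeodomain transcription factors that lie in 4 chromosomal clusters, a to d, on chromosomes 6, 11, 15 and 2. Their order within a cluster follows the order in which they are used along the head-to-tail axis, and genes with the same number in different clusters are paralogs. In the female tract of the mouse the posterior genes of cluster a are used in turn, Hoxa9 in the oviduct, Hoxa10 in the uterus, Hoxa11 in the uterus and cervix and Hoxa13 in the upper vagina. Hoxa10 and Hoxa11 remain active in the adult uterine stroma, respond to progesterone and are needed for implantation. Groups 1 to 3 are called anterior here, 4 to 8 central and 9 to 13 posterior.

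The Foxa2 probe set read 8.22, 8.20, 8.21 and 8.21 (log2 intensity) in Foxa2-deleted uteri 1 to 4, against 8.61, 8.82, 8.74 and 8.73 in control uteri 1 to 4, so all 8 arrays followed their labels. Pgr averaged 11.60 ± 0.21 in Foxa2-deleted uteri and 11.23 ± 0.05 in controls (SD, n = 4 each). It passed as higher, by 0.37 (SE 0.10, adjusted p = 0.0428, limma), without overlap. That call was lost without any single control or Foxa2-deleted uterus 1 or 4 (adjusted p up to 0.1055, limma). A replicate block, quantile normalization applied again or testing all probe sets also ended it. The array medians lay between 8.25 and 8.29 in Foxa2-deleted uteri and between 8.29 and 8.32 in controls, and precision is limited by there being 4 arrays a group. Each deleted uterus was placed between the controls (0) and the mean of the remaining deleted uteri (1) over the 19901 genes outside the Hox family, which put Foxa2-deleted uteri 1 to 4 at 0.946, 0.562, 1.38 and 0.756. Uterus 3 thus stood furthest from the controls and uterus 2 nearest. The tissue carried its own markers, with a mean log2 intensity of 11.49 to 11.76 over 12 stromal markers in Foxa2-deleted uteri and 11.74 to 11.77 in controls. Markers of oviduct and of cervix and vagina, the neighbouring parts of the tract, averaged at most 7.52 on any array.

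None of the 37 Hox genes passed an adjusted p of 0.05 (limma, Benjamini-Hochberg over all genes tested), where 11.1% of all genes passed (4.5% higher and 6.58% lower). Those genes were 898 higher and 1311 lower, a split that became 1082 and 982 with each array centred on its median and 1011 and 939 with quantile normalization applied again. At an unadjusted p under 0.05 there were 11 Hox genes, 4 higher and 7 lower in Foxa2-deleted uteri, which is near the background of 31.5% of all genes (14.5% higher and 17% lower). The smallest adjusted p was that of Hoxd12 (0.0587). In 5 Hox genes the groups did not overlap, where 21.1% of all genes had groups that did not (9.55% higher and 11.6% lower). These were Hoxa9, Hoxd4 and Hoxd11, lower in the deleted uteri, and Hoxc11 and Hoxd12, higher. The count of 0 depended on single arrays. Without Foxa2-deleted uterus 2, Hoxa10, Hoxa11, Hoxd8 and Hoxd11 passed as lower, with 14.8% of all genes passing. Without uterus 3, Hoxa9 passed as lower (9.37% of all genes), and without uterus 4, Hoxd4 passed as lower and Hoxd12 as higher (15.3% of all genes). With that centring, Hoxc11 and Hoxd12 passed as higher.

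The median log2 difference, Foxa2-deleted minus control, was -0.04 over the 37 Hox genes, against 0.01 over all genes, with a range from -0.63 for Hoxa11 to 0.25 for Hoxc8. By position on the axis it was -0.06 in the 7 anterior genes, -0.11 in the 14 central genes and 0.04 in the 16 posterior genes, which became -0.27 with the dimmest 25% of all genes left out, the median change of posterior Hox genes then lying below that of groups 1 to 8 (-0.15). The posterior value averaged over unlike members. The 10 genes of groups 9 to 11 had a median difference of -0.24, with 7 below 0, while all 6 of groups 12 and 13 lay above 0, with a median of 0.17. Those 6 were all dim, with control means from 6.90 to 7.25. Most genes of that level lay above 0, 73.1% of those with a mean between 7 and 7.5 and 68.7% of those up to 7. By cluster the median difference was -0.18 in a (10 genes), -0.04 in b (9 genes), 0.08 in c (9 genes) and -0.21 in d (9 genes). The sign of the medians thus did not follow anterior or posterior position alone. In groups 9 to 11 the median difference was -0.50 in cluster a and -0.27 in cluster d (3 genes each), 0.13 in cluster c (3 genes) and 0.01 for Hoxb9. These medians describe the members and carry no test.

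**Figure D1:**
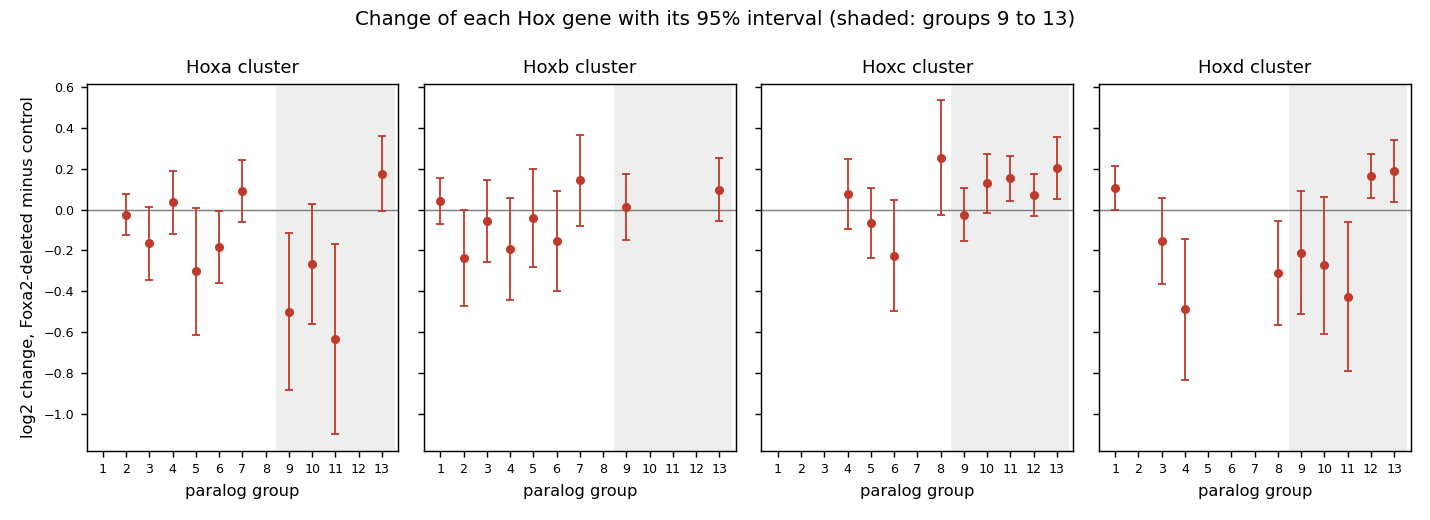
Log2 difference between Foxa2-deleted and control uteri (vertical axis) for each Hox gene by paralog group (horizontal axis), 1 panel per cluster, with 95% intervals from limma (n = 4 each). Differences below -0.2 in the shaded posterior groups occur in clusters a and d in groups 9 to 11, while groups 12 and 13 lie above 0 in each cluster that has them. The genes of groups 12 and 13 are all dim (control means 6.90 to 7.25), a level at which most genes lie above 0.

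Control intensities ran from 6.90 for Hoxd12 to 11.51 for Hoxd10 (log2), and since probe sets differ in response these are not ranked as amounts of transcript. A split of the members at the median level of all genes was made after the values were seen. It left 16 Hox genes above the median, namely Hoxa9, Hoxa10 and Hoxa11, Hoxb1 to Hoxb7, and Hoxd3, Hoxd4 and Hoxd8 to Hoxd11, and no gene of cluster c. The 16 had a median difference of -0.22, with 14 below 0, and the 21 below the median level had one of 0.08, with 7 below 0. The median difference varied with level over all genes too, within a narrower range, from 0.07 between 7 and 7.5 to -0.06 between 9 and 10, and was 0.01 above 11. Over all genes with a mean log2 intensity of 7 to 7.5, the median difference was 0.07 and 73.1% lay above 0, where 9 of 11 Hox genes did (median 0.11). Over all genes between 10 and 11, the median difference was -0.03, whereas the 4 Hox genes there had a median of -0.46.

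**Figure D2:**
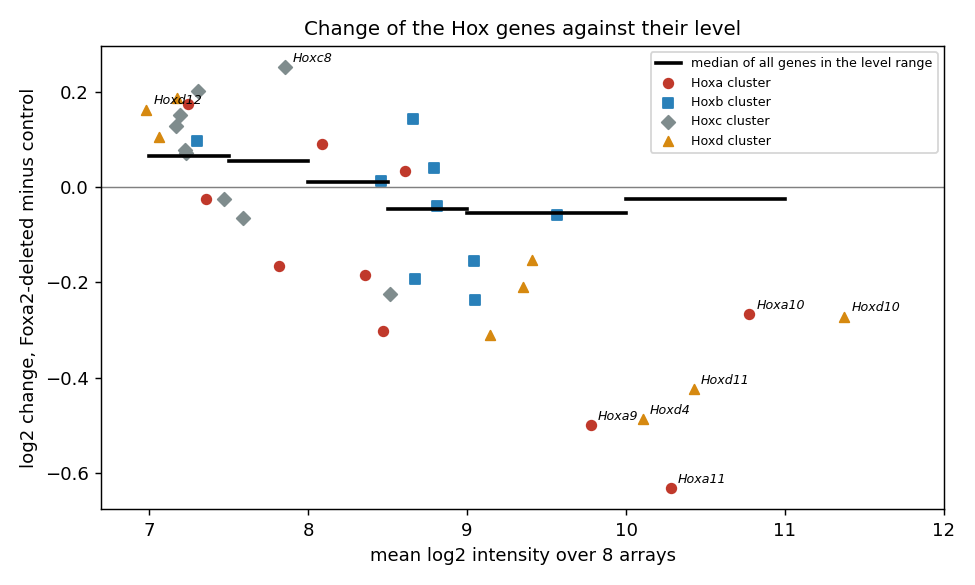
Log2 difference, Foxa2-deleted minus control (vertical axis), of each Hox gene against its mean log2 intensity over the 8 arrays (horizontal axis), coloured by cluster, with black bars for the median difference of all genes in each level range. The 4 Hox genes between 10 and 11 had a median of -0.46, against -0.03 for all genes there.

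The bright genes of clusters a and d shared their lowest animal. There were 9 of them, Hoxa9 to Hoxa11, Hoxd3, Hoxd4 and Hoxd8 to Hoxd11. In all 9 the lowest of the deleted uteri was uterus 3, and in 8 of 9 uteri 3 and 1 were the lowest pair, both below every control in all 9. The 9 were picked after the values were seen, and such counts were not made over all genes. Over the 19901 genes outside the Hox family uterus 3 also stood furthest from the controls (1.38). The highest deleted uterus was uterus 2 in 6 of the 9 and uterus 4 in 3. Their deviations from the control mean averaged -0.46, -0.04, -0.76 and -0.19 in Foxa2-deleted uteri 1 to 4. The controls were tight, with an SD of 0.03 to 0.09 per gene, against 0.19 to 0.49 in the deleted uteri. The SD was larger in the deleted group in 9 of 9, and in 70.3% of all genes. As a picture of the sequence around such genes, 300 bases from 250 before to 50 after the start are given for 3 of them (RefSeq, GRCm38.p6, 5′ to 3′), with CG dinucleotides in capitals.
Hoxa9 promoter, chr6:52227321-52227620, minus strand: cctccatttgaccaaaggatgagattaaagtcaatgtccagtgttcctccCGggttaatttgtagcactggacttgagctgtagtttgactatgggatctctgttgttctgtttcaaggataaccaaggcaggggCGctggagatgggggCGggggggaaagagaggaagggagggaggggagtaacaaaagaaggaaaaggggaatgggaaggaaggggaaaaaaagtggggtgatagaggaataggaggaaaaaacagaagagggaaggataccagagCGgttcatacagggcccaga
Hoxa11 promoter, chr6:52245761-52246060, minus strand: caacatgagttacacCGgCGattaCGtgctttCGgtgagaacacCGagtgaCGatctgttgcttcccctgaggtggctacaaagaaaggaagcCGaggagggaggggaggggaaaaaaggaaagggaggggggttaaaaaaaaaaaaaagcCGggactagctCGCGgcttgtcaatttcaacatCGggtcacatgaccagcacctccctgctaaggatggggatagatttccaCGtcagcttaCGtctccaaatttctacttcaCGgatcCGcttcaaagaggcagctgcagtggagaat
Hoxd10 promoter, chr2:74691641-74691940, plus strand: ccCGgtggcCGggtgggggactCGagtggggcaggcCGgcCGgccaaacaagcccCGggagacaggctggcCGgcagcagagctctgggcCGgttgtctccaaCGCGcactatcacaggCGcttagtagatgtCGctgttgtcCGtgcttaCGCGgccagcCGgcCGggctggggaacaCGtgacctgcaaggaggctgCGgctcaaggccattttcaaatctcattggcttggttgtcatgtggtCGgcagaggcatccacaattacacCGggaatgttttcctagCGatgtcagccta

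The Hoxa9 window held 4 CG dinucleotides, that of Hoxa11 held 15 and that of Hoxd10 held 22. Start regions listed for Hox members (23 windows of 21 genes) had a median of 15, against 7 over 32851 windows of all genes. These windows were searched on both strands for the forkhead core TGTTTAC, a posterior HOX and CDX core TTTATNG and the steroid receptor core ACANNNTGT. The forkhead core was in 0 of 23 Hox windows and 3.65% of all windows, the steroid receptor core in 0 of 23 and 6.85%, and the HOX and CDX core in 1 of 23, that of Hoxd4, and 10.9%. The absence of these letters from 300 bases says nothing of the factors elsewhere.

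**Figure D3:**
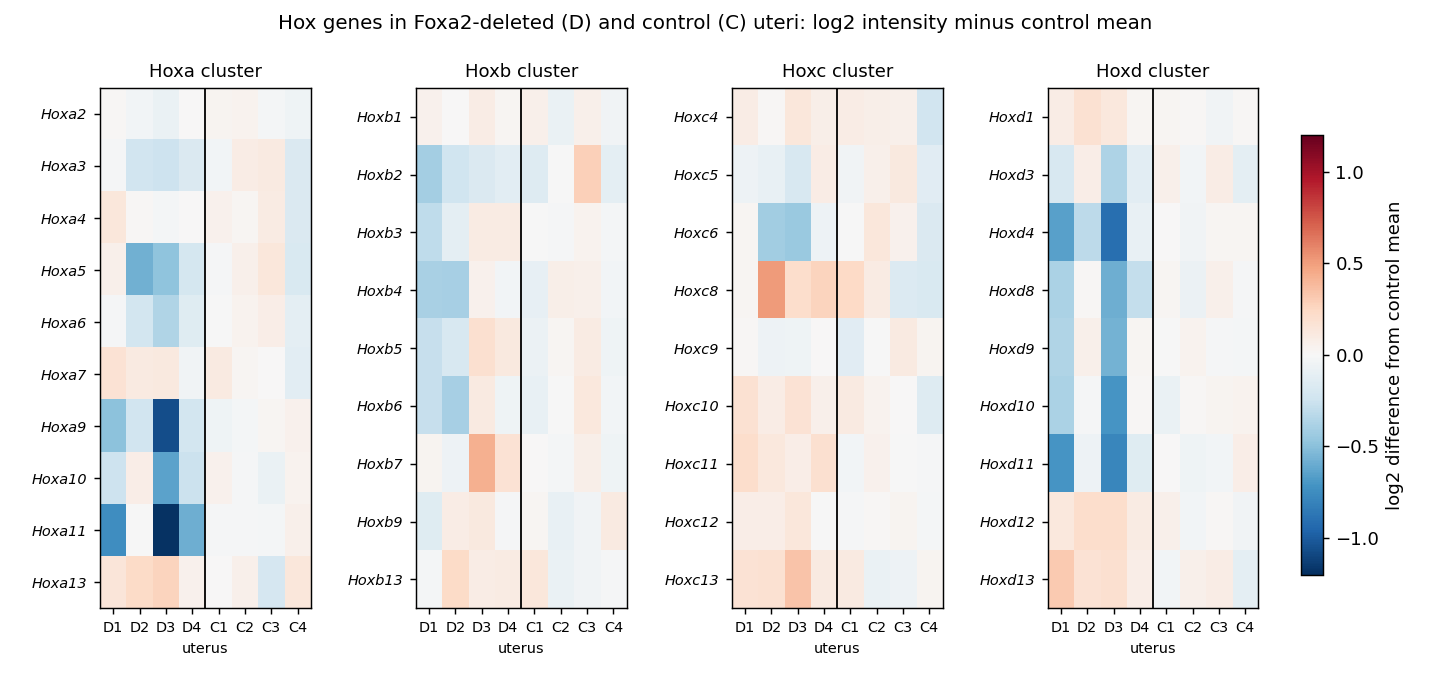
Log2 intensity of each of the 37 Hox genes (rows, 1 panel per cluster) minus its control mean, in Foxa2-deleted uteri D1 to D4 and control uteri C1 to C4 (columns), with blue below and red above the control mean. The darkest cells are Hoxa11, Hoxa9 and Hoxd4 in D3, while Hoxb3 to Hoxb6 are blue in D1 and D2.

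Hoxa9, used in the oviduct and in blood progenitors, had log2 intensities of 9.54, 9.80, 8.96 and 9.81 in Foxa2-deleted uteri 1 to 4, against 9.98, 10, 10.05 and 10.08 in control uteri 1 to 4. All 4 deleted uteri lay below all controls, uterus 3 by most. The difference was -0.50 (SE 0.17, 95% interval -0.88 to -0.12, adjusted p = 0.0857, limma). Hoxa10, the uterine identity gene whose loss in mice turns the anterior uterus towards oviduct, read 10.66, 10.99, 10.27 and 10.65 in Foxa2-deleted uteri, against 10.96, 10.90, 10.83 and 10.95 in controls. Uteri 1, 3 and 4 lay below the controls and uterus 2 above them, so the groups overlapped. The difference of -0.27 (SE 0.13, adjusted p = 0.190, limma) had a 95% interval from -0.56 to 0.02. It was -0.38 without uterus 2 (adjusted p = 0.0375, limma) and -0.14 without uterus 3 (adjusted p = 0.318, limma). For Hoxa9 the omission of uterus 3 gave -0.31 (adjusted p = 0.0373, limma).

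Hoxa11, required for stromal decidualization and gland development in the mouse uterus, gave 9.85, 10.59, 9.41 and 10.01 in Foxa2-deleted uteri, against 10.58, 10.58, 10.57 and 10.66 in controls. Uterus 2 sat within the control range and the other 3 well below it. This was the largest difference of the family, -0.63 or 1.55-fold lower (SE 0.20, 95% interval -1.10 to -0.17, adjusted p = 0.0772, limma). Without uterus 2 it was -0.84 (adjusted p = 0.00508, limma), and without uterus 3 it was -0.45 (adjusted p = 0.106, limma). Hoxa13, the vaginal and digit gene at the end of the cluster, was dim on every array, at 7.31, 7.39, 7.43 and 7.21 in Foxa2-deleted uteri, against 7.16, 7.22, 6.96 and 7.30 in controls. Its groups overlapped, with a difference of 0.18 (SE 0.08, adjusted p = 0.174, limma), on the other side of 0 from its 3 neighbours.

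In the bright genes of cluster d uterus 3 was again the lowest, while the highest deleted uterus was 2 or 4. Hoxd10 and Hoxd11, limb and lumbar patterning genes, are the paralogs of Hoxa10 and Hoxa11. Hoxd10 read 11.13, 11.50, 10.80 and 11.52 in Foxa2-deleted uteri, against 11.43, 11.52, 11.54 and 11.55 in controls, with uteri 2 and 4 inside the control range (difference -0.27, SE 0.15, adjusted p = 0.235, limma). Hoxd11 read 9.93, 10.58, 9.85 and 10.49 in Foxa2-deleted uteri, against 10.64, 10.59, 10.60 and 10.72 in controls. Here all 4 deleted uteri lay below the controls, uterus 2 by 0.01 only, and the difference was -0.43 (SE 0.16, adjusted p = 0.113, limma). Hoxd9 gave 9.09, 9.52, 8.89 and 9.48 in Foxa2-deleted uteri, against 9.45, 9.50, 9.44 and 9.43 in controls, so that uteri 2 and 4 were no lower than the controls (difference -0.21, SE 0.13, adjusted p = 0.301, limma). Without uterus 3 the difference was -0.13 for Hoxd10 (adjusted p = 0.413, limma) and -0.09 for Hoxd9 (adjusted p = 0.571, limma).

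Further towards the anterior end of cluster d, Hoxd8 read 8.92, 9.31, 8.71 and 9.01 in Foxa2-deleted uteri, against 9.32, 9.23, 9.36 and 9.28 in controls, again with uterus 2 among the controls (difference -0.31, SE 0.11, adjusted p = 0.0991, limma). Hoxd4, a gene of cervical vertebrae in the embryo, had 9.70, 10.04, 9.45 and 10.26 in Foxa2-deleted uteri, against 10.35, 10.31, 10.37 and 10.37 in controls. All 4 deleted uteri lay below all controls, and the difference was -0.49 (SE 0.15, 95% interval -0.83 to -0.14, adjusted p = 0.0712, limma). Hoxd3, the gene beside it, had -0.15 (SE 0.09, adjusted p = 0.286, limma) with overlapping groups, and -0.08 without uterus 3. At its ends the dim genes Hoxd1, Hoxd12 and Hoxd13 had differences of 0.11, 0.16 and 0.19. Hoxd12 read 7.03, 7.11, 7.11 and 7.0 in Foxa2-deleted uteri, against 6.96, 6.87, 6.91 and 6.86 in controls, so its groups stood apart, by a small amount (SE 0.05, adjusted p = 0.0587, limma).

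**Figure D4:**
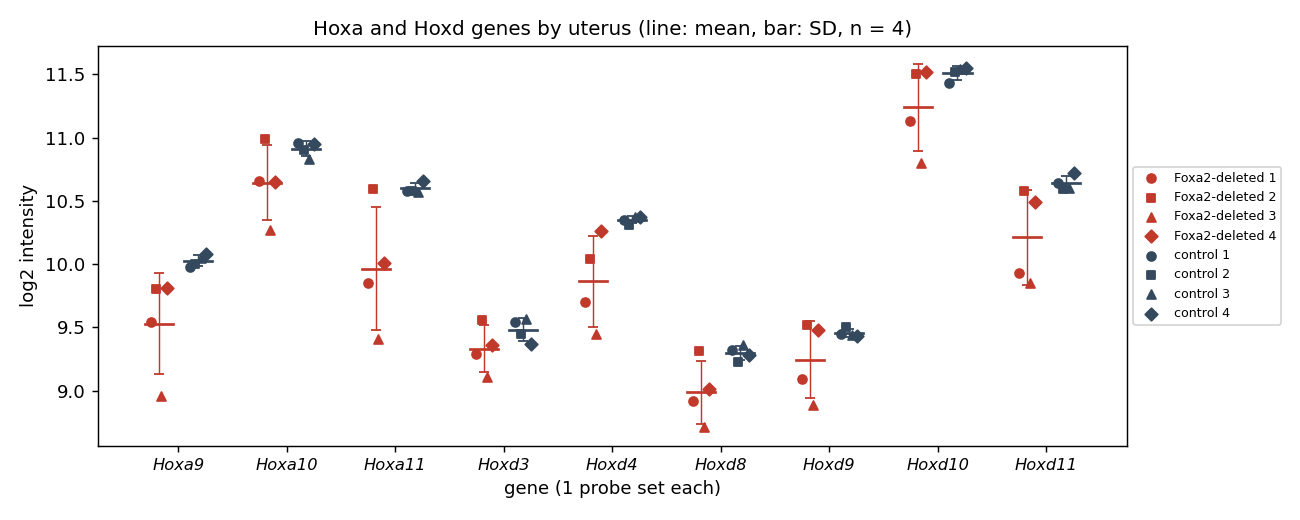
Log2 intensity (vertical axis) of the 9 genes of clusters a and d above the median level (horizontal axis) in 4 Foxa2-deleted and 4 control uteri, 1 symbol per animal, with the mean as a line and the SD as a bar (n = 4). Uterus 3 (red triangle) is the lowest in all 9 genes, while the controls keep an SD of at most 0.09.

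In cluster b other animals were low. Its 7 genes above the median level were Hoxb1 to Hoxb7, several of them only just above it. In 6 of the 7, uteri 1 and 2 were the lowest pair of the deleted uteri. Uterus 3 was the highest in 6 of 7 (level with uterus 4 in Hoxb3), the exception being Hoxb2, where uterus 4 was. The range of Hoxb1 was small, 0.09 in the deleted uteri and 0.14 in controls. Deviations of the 7 genes from the control mean averaged -0.22, -0.20, 0.11 and 0.03 in Foxa2-deleted uteri 1 to 4. Uterus 3 lay below all controls in 1 of the 7, Hoxb2, and uterus 2 in 6 of the 7, against 9 and 3 of the 9 bright a and d genes. Here too the share over all genes was not counted. For Hoxb7 the margin of uterus 2 was small, 8.53 against a lowest control of 8.54. Hoxb4, known for expanding blood stem cells, read 8.38, 8.37, 8.82 and 8.74 in Foxa2-deleted uteri, against 8.67, 8.84, 8.83 and 8.74 in controls. Hoxb6 read 8.85, 8.72, 9.23 and 9.07 in Foxa2-deleted uteri, against 9.03, 9.12, 9.25 and 9.09 in controls. Both had overlapping groups. The difference was -0.19 for Hoxb4 (SE 0.11, adjusted p = 0.254, limma) and -0.16 for Hoxb6 (SE 0.11, adjusted p = 0.346, limma).

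Hoxb7 lay above the controls in 2 deleted uteri, at 8.62, 8.53, 9.02 and 8.76 in Foxa2-deleted uteri, against 8.59, 8.57, 8.66 and 8.54 in controls (difference 0.14, SE 0.10, adjusted p = 0.341, limma). Hoxb2, a hindbrain gene, had the largest difference of the cluster, -0.24 (SE 0.10, adjusted p = 0.152, limma), with overlapping groups. For Hoxb1, Hoxb3, Hoxb5 and Hoxb9 the difference was within 0.06 of 0. The 95% intervals were -0.07 to 0.15 for Hoxb1, -0.26 to 0.14 for Hoxb3, -0.28 to 0.20 for Hoxb5 and -0.15 to 0.17 for Hoxb9. Differences inside these bounds were not excluded with 4 uteri a group. Hoxb13, a prostate and tail gene, was dim and had 0.10 (SE 0.07, adjusted p = 0.352, limma).

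**Figure D5:**
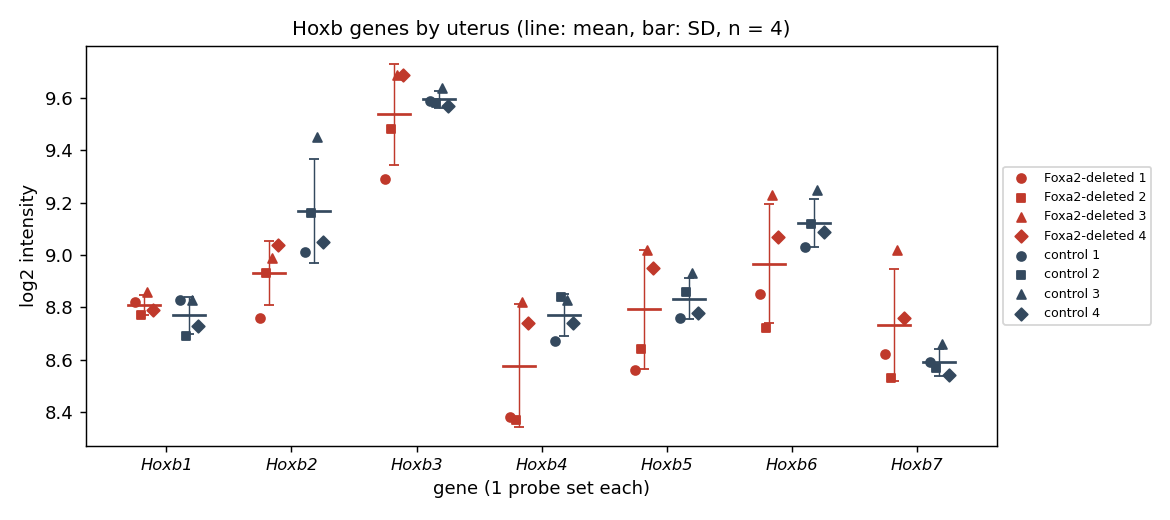
Log2 intensity (vertical axis) of Hoxb1 to Hoxb7 (horizontal axis) in 4 Foxa2-deleted and 4 control uteri, 1 symbol per animal, with the mean as a line and the SD as a bar (n = 4). Uteri 1 and 2 are the lowest deleted pair in 6 of 7 genes and uterus 3 the highest deleted uterus in 6 of 7.

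Hoxa5 and Hoxc6, central genes of clusters a and c that are not paralogs of each other, made another pattern. Hoxa5, a regulator of lung and mammary development, read 8.69, 8.05, 8.14 and 8.41 in Foxa2-deleted uteri, against 8.61, 8.69, 8.76 and 8.44 in controls. Uteri 2 and 3 were low and uterus 1 within the controls (difference -0.30, SE 0.14, adjusted p = 0.167, limma). Hoxc6 followed the same animals, with 8.65, 8.21, 8.18 and 8.57 in Foxa2-deleted uteri, against 8.62, 8.76, 8.68 and 8.45 in controls (difference -0.23, SE 0.12, adjusted p = 0.226, limma). Hoxa6 had -0.19 (SE 0.08, adjusted p = 0.143, limma) and Hoxa3, a gene of thymus and parathyroid, -0.17 (SE 0.08, adjusted p = 0.185, limma), both lowest in uterus 3 and next in uterus 2. Hoxa2, Hoxc5 and Hoxc9, all dimmer, had the same lowest pair, so it was not particular to Hoxa5 and Hoxc6. The dim or intermediate Hoxa2, Hoxa4 and Hoxa7 had differences of -0.03, 0.04 and 0.09, with adjusted p of at least 0.374 (limma).

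Cluster c lay on the dim side, with control means from 7.11 for Hoxc10 to 8.63 for Hoxc6. Hoxc8, a gene of the thoracic skeleton, had the highest difference of the family, 0.25 (SE 0.12, adjusted p = 0.196, limma), at 7.75, 8.24, 7.94 and 8.0 in Foxa2-deleted uteri, against 7.97, 7.83, 7.57 and 7.55 in controls. Its groups overlapped, and the SD was 0.20 in the deleted uteri and 0.20 in controls. The posterior Hoxc10, Hoxc11, Hoxc12 and Hoxc13 had 0.13, 0.15, 0.07 and 0.20. Of these Hoxc11 stood apart, at 7.33, 7.24, 7.19 and 7.31 in Foxa2-deleted uteri, against 7.08, 7.17, 7.11 and 7.10 in controls (SE 0.05, adjusted p = 0.0721, limma). Hoxc13, which controls hair keratins, had an SE of 0.07 and an adjusted p of 0.0780 (limma), with overlapping groups. Hoxc4, Hoxc5 and Hoxc9 lay between -0.07 and 0.08.

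The Hox clusters also hold microRNA genes that repress Hox transcripts, of which 6 had probe sets. A whole-transcript array reports the region of the hairpin or its precursor, and mature microRNA was not measured. The mature sequences are shown for the family comparison (RefSeq, GRCm38.p6), with the seed, bases 2 to 8, in capitals.
mmu-miR-10a-5p: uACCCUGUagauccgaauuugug
mmu-miR-10b-5p: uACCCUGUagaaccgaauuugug
mmu-miR-196a-5p: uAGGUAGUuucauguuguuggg
mmu-miR-196b-5p: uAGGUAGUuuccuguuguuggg

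The miR-10 pair shares the seed ACCCUGU and the miR-196 members share AGGUAGU. Mir196a-1, which starts between Hoxb13 and Hoxb9, was the 1 of 12 cluster-embedded RNA and gene entries measured that passed, where 11.1% of all genes did. It read 6.96, 7.01, 6.83 and 7.01 in Foxa2-deleted uteri, against 7.29, 7.17, 7.25 and 7.16 in controls, with no overlap. It fell by 0.27 (SE 0.06, adjusted p = 0.0240, limma), at a dim level (percentile 19.2 of all genes). The call was lost with a replicate block, without any single control and without Foxa2-deleted uterus 1 (adjusted p up to 0.0756, limma). Mir196a-2, which gives the same mature sequence from cluster c, had a difference of 0.25 (SE 0.08, adjusted p = 0.0759, limma), chosen for mention after its value was seen. Mir10b, beside Hoxd4, read 6.85, 7.10, 6.95 and 8.13 in Foxa2-deleted uteri, against 7.73, 8.05, 8.20 and 8.18 in controls. Uteri 1, 2 and 3 were below all controls and uterus 4 among them (difference -0.78, SE 0.26, adjusted p = 0.0831, limma). This was not the order of Hoxd4, whose uterus 4 was also nearest the controls but whose uterus 3 was lowest. Mir196b, between Hoxa9 and Hoxa10, read 8.74, 8.73, 8.25 and 8.90 in Foxa2-deleted uteri, against 8.83, 8.97, 9.05 and 8.99 in controls, lowest in uterus 3 as its neighbours were (difference -0.31, SE 0.13, adjusted p = 0.141, limma). Mir10b and Mir196b were likewise picked after their values were seen.

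HOX proteins bind DNA together with PBX, MEIS and PKNOX partners. Of 8 such cofactor genes measured, 1 fell and 7 did not pass, with a median difference of -0.01. Pknox2 read 10.01, 10.15, 9.53 and 9.61 in Foxa2-deleted uteri, against 10.42, 10.62, 10.47 and 10.48 in controls, and fell by 0.67 (SE 0.13, adjusted p = 0.0197, limma). Of 17 Polycomb, Trithorax and related chromatin genes that keep Hox clusters silent or active, 1 fell and 16 did not pass (median -0.07). The Polycomb gene Cbx7 read 8.86, 8.75, 8.63 and 9.09 in Foxa2-deleted uteri, against 9.28, 9.24, 9.23 and 9.26 in controls, and fell by 0.42 (SE 0.09, adjusted p = 0.0233, limma). Both shares, 1 of 8 and 1 of 17, are near the 11.1% of all genes. The call of Pknox2 was lost without control 2, 3 or 4 and that of Cbx7 without any 1 control or Foxa2-deleted uterus 1, with adjusted p up to 0.0668 and 0.0727.

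Among 27 genes that pattern the Müllerian duct, the embryonic tube from which oviduct, uterus and upper vagina form, 4 rose, 1 fell and 22 did not pass (median 0.08), where 4.5% of all genes rose and 6.58% fell. Wnt7a, a luminal signal that maintains Hoxa10 and Hoxa11 in the mouse uterus, read 9.03, 8.48, 8.92 and 9.94 in Foxa2-deleted uteri, against 8.06, 7.94, 8.10 and 7.91 in controls. All 4 deleted uteri stood above all controls, uterus 4 by most, and Wnt7a rose by 1.09 (SE 0.26, adjusted p = 0.0325, limma). The stromal signal Wnt5a rose by 0.47 (SE 0.09, adjusted p = 0.0160, limma) and Wnt4, needed for duct formation and decidualization, by 0.38 (SE 0.08, adjusted p = 0.0228, limma). Dlx5, a homeobox gene of gland formation named to complete the count, rose by 0.55 (SE 0.14, adjusted p = 0.0394, limma). Nr2f2, the stromal receptor COUP-TFII, fell by 0.41 (SE 0.10, adjusted p = 0.0341, limma), and it read 11.01, 11.27, 10.76 and 11.16 in Foxa2-deleted uteri, with uterus 3 lowest and uterus 2 highest as in Hoxa11, against 11.49, 11.44, 11.41 and 11.52 in controls. Each of these calls was lost without at least 1 control, with adjusted p up to 0.0539 for Wnt5a, 0.0727 for Wnt4, 0.0934 for Wnt7a, 0.113 for Dlx5 and 0.0995 for Nr2f2.

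Of 16 uterine genes tied to HOXA10 or HOXA11, 2 rose, 2 fell and 12 did not pass (median 0.10), against 4.5% and 6.58% of all genes. Ptger4, a prostaglandin E receptor gene that depends on Hoxa10 in the mouse stroma, read 9.53, 10.04, 9.50 and 9.61 in Foxa2-deleted uteri, against 10.50, 10.60, 10.39 and 10.69 in controls, and fell by 0.88 (SE 0.12, adjusted p = 0.0060, limma). Itgb3, an integrin gene activated by HOXA10 in human endometrial cells, read 11.01, 10.52, 10.68 and 10.13 in Foxa2-deleted uteri, against 9.82, 9.81, 9.95 and 9.91 in controls, and rose by 0.71 (SE 0.16, adjusted p = 0.0262, limma). The relaxin receptor gene Rxfp1 rose by 0.55 (SE 0.15, adjusted p = 0.0472, limma) and the chaperone gene Fkbp5 fell by 0.71 (SE 0.16, adjusted p = 0.0279, limma), which is also on the progesterone list below. Genes linked to the same factors thus moved both ways. Ptger4 passed with each array left out, whereas the calls of Itgb3 (adjusted p up to 0.0803) and Fkbp5 (up to 0.0816) were lost on omission of any single control and Rxfp1 without any 1 array other than Foxa2-deleted uterus 3 (up to 0.119).

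Retinoic acid sets Hox expression in the embryo. Of 16 genes of retinoid signalling and axial control, 2 rose, 1 fell and 13 did not pass (median 0.11), with 4.5% and 6.58% over all genes. Aldh1a2, which makes retinoic acid, rose by 1.17 (SE 0.21, adjusted p = 0.0147, limma), and its relative Aldh1a1 rose by 1.2 (SE 0.27, adjusted p = 0.0269, limma). Gdf11, a secreted signal that positions posterior Hox expression in the mouse embryo, read 8.92, 9.33, 8.59 and 8.84 in Foxa2-deleted uteri, against 9.53, 9.35, 9.51 and 9.41 in controls. It fell by 0.53 (SE 0.14, adjusted p = 0.0414, limma), with uterus 3 lowest and uterus 2 nearest the controls. Omission of any single control or of Foxa2-deleted uterus 1 ended the calls of Aldh1a1 (adjusted p up to 0.0793) and Gdf11 (up to 0.111). The call of Gdf11 was also lost without Foxa2-deleted uterus 3 or 4.

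Markers of cell types moved beside the Hox values, and their part in them was not tested. Over all genes 4.5% rose and 6.58% fell. Of 12 epithelial markers 5 rose, with a mean log2 intensity of 10.35 to 11.28 in Foxa2-deleted uteri against 9.88 to 10.07 in controls, at 0.55, 0.37, 1.30 and 0.71 above the control mean in uteri 1 to 4. Of 12 stromal markers 1 rose and 1 fell, and their mean lay at -0.02, 0.00, -0.26 and -0.12 relative to controls. The stromal mean was thus lowest in uterus 3. It averaged over unlike markers there, with Nr2f2 at 10.76 (11.41 to 11.52 in controls) and Col6a1 at 12.27 (11.75 to 11.78 in controls). Of 10 smooth muscle markers 1 rose, with a mean of 11.18 to 11.72 in Foxa2-deleted uteri against 11.18 to 11.37 in controls. Of 11 endothelial markers 8 fell (9.77 to 10.41 in Foxa2-deleted uteri against 10.69 to 10.79 in controls), at -0.61, -0.32, -0.96 and -0.51 in uteri 1 to 4, again with uterus 3 lowest and uterus 2 nearest. Of 10 progesterone-responsive genes 6 fell, at -1.40, -0.13, -1.15 and -1.34. Uterus 2 was nearest the controls in these too, but uterus 3 was not the lowest. Of 8 gland markers 5 fell, among them Foxa2 itself, the deleted gene. Among 8 natural killer and T cell markers 6 fell. The 8 myeloid markers held 1 that fell, Ptprc, and 6 above 0 that did not pass. Of 6 oviduct markers 2 fell, of 9 cervix and vagina markers 3 rose and of 9 estrogen-responsive genes all 9 rose.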

How the data were processed

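Whole uteri of 4 Foxa2-deleted and 4 control mice were measured on 1 array each, from 150 ng of total RNA, per the labels' protocols. For each probe set the authors deposited a log2 intensity made with RMA, per the submitters' processing notes, which also name limma. Versions, genome build and annotation were not given in the sources used here. RMA pulls dim probe sets towards a floor, so differences of dim genes are understated, and no detection call was given.

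Of 35556 probe sets, 21789 were paired with 1 symbol in GEO's platform annotation, 1621 with several and 12146 with none. For the 999 genes with more than 1 probe set, that with the highest mean was used, which left 19938 genes. Differences (deleted minus control) were fitted without covariates by limma 3.58.1 (lmFit, eBayes; R 4.3.3) and adjusted by Benjamini-Hochberg over all genes, with a threshold of 0.05. The steps were tested on simulated data.

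The Hox members, the gene lists and the marker lists were chosen with earlier results of these data known, so no list was tested. The text names every Hox gene, Foxa2 and Pgr, and for each list at most 4 called members, taken by adjusted p, or 2 members taken by p where none was called. Dlx5, Prrx2, Barx2, Mir10b, Mir196b and Mir196a-2 were added after their values were seen. The labels call the replicates biological, and p-values measure the spread between these animals. Alternatives were a replicate block, 2 other scalings, omission of the dimmest 25% of genes, all probe sets, the mean of the probe sets of a gene, another variance prior and each array left out. Array weights in limma were added after seeing the data.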

Additional observations from a re-analysis of the deposited data

Results flagged for a closer look

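Of 186 groups of 4 uteri in the 93 genes checked, 8 held 1 uterus whose gap to the nearest other, over the range of the group, passed Dixon's 95% critical value. Chance gives about 1 in 20. Among the 74 Hox groups there were 3, all in controls: Hoxa11 at 10.66 in control 4, against 10.57 to 10.58 in the others, Hoxc4 at 6.96 in control 4, against 7.25 to 7.28, and Hoxd1 at 6.97 in control 3, against 7.02 to 7.03. In no Hox gene did the single far sample come from the deleted group. Its spread was the larger in 25 of 37, near the 70.3% of all genes. Outside the family the chemokine gene Cxcl15 stood at 6.25 in Foxa2-deleted uterus 3, against 5.96 to 5.97 in the other deleted uteri. The others were control values. Col6a1 stood at 11.78 in control 1, Dnah5 at 7.62 and Sprr2f at 7.55 in control 4, and Cfap126 at 7.59 in control 3.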

How the results depend on the processing

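The number of Hox genes past the threshold was 0 in each direction with the replicate block, quantile normalization applied again, the dimmest 25% of genes left out (26 Hox genes tested), all probe sets tested, the mean of the probe sets of a gene, and a trended robust variance prior. It was 2 higher with centring of each array on its median, and 1 higher (Hoxd12) and 3 lower (Hoxa9, Hoxa11, Hoxd4) with array weights, which gave Foxa2-deleted uterus 3 the lowest weight (0.405). With 1 array left out it ranged from 0 to 1 higher and from 0 to 4 lower. The cause was not tested. The count over all genes, 2209, became 1062 with the replicate block and ranged from 556 to 3059 with 1 array left out. Called genes were 898 higher and 1311 lower, but 1082 and 982 under centring and 1011 and 939 under repeated quantile normalization. The median change of all Hox genes was -0.01 under centring, -0.175 with the dimmest 25% left out, which removes 11 dim Hox genes, and -0.0925 to -0.0233 with 1 array left out. The median change of posterior Hox genes (groups 9 to 13) was -0.27 with the dimmest left out and 0.0188 to 0.0679 with 1 array left out. For groups 1 to 8 it was -0.154 with the dimmest left out, -0.109 with array weights and -0.115 to -0.0425 with 1 array left out. Directions turned only in genes near 0. Under centring Hoxa2 and Hoxc9 were at 0.005, under repeated quantile normalization Hoxb5 was at 0.0031, and with array weights Hoxb9 was at -0.0164. With 1 array left out the ranges were -0.0225 to 0.0675 for Hoxa4, -0.108 to 0.025 for Hoxb3, -0.116 to 0.0375 for Hoxb5, -0.0233 to 0.0667 for Hoxb9 and -0.07 to 0.01 for Hoxc9. Deviations of same-numbered uteri correlated at 0.06, -0.05, -0.03 and -0.01 across genes, within the range of differently numbered uteri (-0.14 to 0.12). These correlations cannot show whether same-numbered animals were paired by mating or handling.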

Other observations

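Of 37 genes with homeoboxes outside the Hox clusters, 4 rose, 2 fell and 31 did not pass (median 0.03), where 11.1% of all genes passed (4.5% higher and 6.58% lower). Six4 rose by 0.78 (SE 0.15, adjusted p = 0.0165, limma) and the mesenchymal gene Prrx1 by 0.49 (SE 0.09, adjusted p = 0.0169, limma), while Prrx2 and Barx2, named to complete the count, rose by 0.23 and 0.35. Tshz2 fell by 0.64 (SE 0.10, adjusted p = 0.0083, limma) and Hhex, a gene of endothelial and blood progenitors, by 0.52 (SE 0.09, adjusted p = 0.0113, limma). Tshz2 read 9.78, 10.11, 9.61 and 9.91 in Foxa2-deleted uteri 1 to 4, against 10.51, 10.43, 10.47 and 10.54 in controls. Its lowest deleted uterus was 3 and its highest 2, the order also seen in Hoxa11. The calls of Tshz2 and Hhex held with each array left out, and those of Six4, Prrx1, Prrx2 and Barx2 were lost without at least 1 control (adjusted p up to 0.0585, 0.0580, 0.0776 and 0.0932).

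Of 20 genes from the chromosomal neighbourhoods of the Hox clusters, 1 rose and 2 fell (median -0.06), where 11.1% of all genes passed. Cbx5 rose by 0.23 (SE 0.04, adjusted p = 0.0165, limma), and Snx10 and Chn1 fell, Snx10 by 0.35 (SE 0.08, adjusted p = 0.0262, limma) and Chn1 by 0.42 (SE 0.10, adjusted p = 0.0285, limma). Each of these 3 calls was lost without at least 2 single controls, with adjusted p up to 0.0894.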
